A study of Mus musculus with 12 samples.

Results

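The genes described are 33 members of glucose breakdown and of the response to low oxygen, followed by symbol through 12 RNA-seq libraries of mouse prostate organoids that each list 43243 gene names. The symbols were listed by their known function, and all 33 were found in the files. They cover glucose uptake (1 gene), the upper steps of glycolysis (9), regulators of phosphofructokinase (2), the lower steps (6), the lactate and pyruvate branch (5), HIF with its oxygen sensors (3) and other hypoxia targets (7). Between genotypes 31 could be tested, since Slc16a3 and Car9 were under the minimum of an RPKM of 1 in 6 libraries. RPKM is the number of reads relative to transcript length and library depth.

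Organoids are small bodies of cells grown from digested mouse prostate in Matrigel, a protein gel, here with EGF at 5 to 50 ng/ml. There were 6 libraries labelled SPOPmut (mutant) and 6 labelled SPOPwt (control), which share the numbers S0 to S5 and are read as 6 pairs. SPOP selects proteins for a cullin-based ubiquitin ligase. In Line_A, CreERT2, a recombinase that waits for a ligand, came from a virus with puromycin selection, and in Line_B from a TMPRSS2-CreERT2 transgene. CreERT2 was switched on overnight with 1 µM 4-Hydroxytamoxifen, after which cells were sorted by GFP, or sham sorted for the controls. The sort and the mutant therefore cannot be told apart. By the labels 5 pairs were model A and the remaining pair model B, with no library marked as either. The labels also describe a noninducible system, with Cre under the Probasin promoter, from PbCre negative mice (Control) and PbCre;R26F133V mice (SPOPmut), and do not tie it to any library. Ages, strains and whether pairs were separate animals or cultures are not given, so a p-value here covers the spread among these libraries only, and that spread may be technical.

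Glycolysis turns glucose into pyruvate with a small yield of ATP, and lactate dehydrogenase turns pyruvate into lactate when it is not burned in mitochondria. Hypoxia-inducible factor, HIF, is made of an oxygen-sensitive alpha subunit and a stable partner. With oxygen present, prolyl hydroxylases (the Egln genes) mark the alpha subunit for destruction, and without oxygen it binds short DNA elements and raises most genes of glycolysis as well as Vegfa, Bnip3 and Adm. Healthy prostate epithelium is known for an unusual metabolism that exports citrate.

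HIF binds DNA around the letters ACGTG or GCGTG, and the stretch before the gene start is shown for 5 genes on which the results below turn. Each is the 250 bases before the start of a RefSeq transcript, on build GRCm38.p6 and 5′ to 3′ along the gene's strand. Capitals mark each ACGTG or GCGTG on either strand, so that CACGT and CACGC are matches on the opposite strand and CACGTG holds ACGTG on both. No base of these windows lay in an annotated exon. The Ldha window lies inside the span of the annotated gene, which has earlier starts. Ldha makes the main subunit of lactate dehydrogenase, Ldhb the other, Pdk1 blocks pyruvate dehydrogenase, Hk2 is an inducible hexokinase and Pgam1 is phosphoglycerate mutase.
Ldha, chr7:46845554-46845803, plus strand: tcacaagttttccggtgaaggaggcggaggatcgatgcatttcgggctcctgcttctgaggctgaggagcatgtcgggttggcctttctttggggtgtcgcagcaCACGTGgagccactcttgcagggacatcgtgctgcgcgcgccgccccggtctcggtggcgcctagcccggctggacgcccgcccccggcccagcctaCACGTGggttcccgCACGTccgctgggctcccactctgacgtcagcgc
Ldhb, chr6:142507958-142508207, minus strand: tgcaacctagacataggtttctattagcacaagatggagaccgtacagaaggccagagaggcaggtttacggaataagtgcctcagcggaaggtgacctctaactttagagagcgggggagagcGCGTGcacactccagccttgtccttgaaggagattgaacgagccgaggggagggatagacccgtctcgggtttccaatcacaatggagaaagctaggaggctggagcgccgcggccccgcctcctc
Pdk1, chr2:71872974-71873223, plus strand: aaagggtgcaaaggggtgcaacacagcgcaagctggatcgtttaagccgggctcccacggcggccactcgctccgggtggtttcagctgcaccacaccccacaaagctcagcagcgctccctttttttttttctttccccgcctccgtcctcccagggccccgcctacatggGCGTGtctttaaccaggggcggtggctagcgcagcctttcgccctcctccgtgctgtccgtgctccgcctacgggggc
Hk2, chr6:82774455-82774704, minus strand: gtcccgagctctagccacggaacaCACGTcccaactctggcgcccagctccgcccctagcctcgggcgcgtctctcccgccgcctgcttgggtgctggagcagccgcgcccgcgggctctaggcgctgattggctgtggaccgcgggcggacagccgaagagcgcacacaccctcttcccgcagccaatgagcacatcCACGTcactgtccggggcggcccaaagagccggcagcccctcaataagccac
Pgam1, chr19:41911621-41911870, plus strand: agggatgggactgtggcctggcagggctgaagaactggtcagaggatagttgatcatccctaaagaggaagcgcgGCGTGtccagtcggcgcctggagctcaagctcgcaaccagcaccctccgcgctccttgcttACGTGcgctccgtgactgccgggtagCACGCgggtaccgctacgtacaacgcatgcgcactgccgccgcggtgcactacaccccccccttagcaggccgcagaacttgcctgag
Motif positions, counted on each strand, numbered 5 before Ldha, 3 before Pgam1, 2 before Hk2, and 1 each before Ldhb and Pdk1. Ldha has a second window, at chr7:46846832-46847081, with 1 motif position, and Pdk1 another, inside annotated exons, with 0. All 33 genes had a window, 47 in all with alternative starts. Either motif was present in 38 of the 47 (80.9%), against 12679 of 32851 windows of the same length over all genes (38.6%). ACGTG alone was in 48.9% of the members' windows and 16.6% of all. The members' windows were also richer in CG, with a median of 14 CG dinucleotides against 6 over all windows, and both motifs contain CG. A match describes letters and not binding.

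Before the results, 4 facts of the whole series bear on them. Libraries held an estimated 28300000 to 41000000 reads or read pairs. Pairs S0 to S4 expressed mesenchymal markers (Col3a1 at 380 to 819 RPKM, Krt5 at 0 to 0.241), and S5 epithelial ones (Krt5 at 1194 to 1705, Col3a1 at 0.107 to 0.154). The split was not complete, since 6 of 10 epithelial markers reached an RPKM of 1 in some library of S0 to S4. Krt18 was at 6.35 to 89.6 there, against 598 to 599 in S5. Of 12 mesenchymal markers 11 reached that level in S0 to S4 and 1 in S5. The luminal prostate marker Pbsn was at 0 in all 12 libraries. Pair S0 stood apart. Across genes, the deviations of its mutant and control from their group means correlated by 0.0602, where the other pairs gave 0.753 to 0.954. This cannot say which of its libraries is the odd one. The smooth muscle marker Acta2 was at 758 RPKM in the S0 control, against 0.648 to 432 in the other libraries. That control also had the fewest genes at an RPKM of 1 or more, 13012. Over all genes the S0 mutant was closer to the control of S2 (correlation 0.9670) than to the S0 control (0.9435). The S1 mutant was also slightly closer to the S2 control (0.9892) than to its own (0.9873). Results that rest on S0 are given with and without it.

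**Figure D1:**
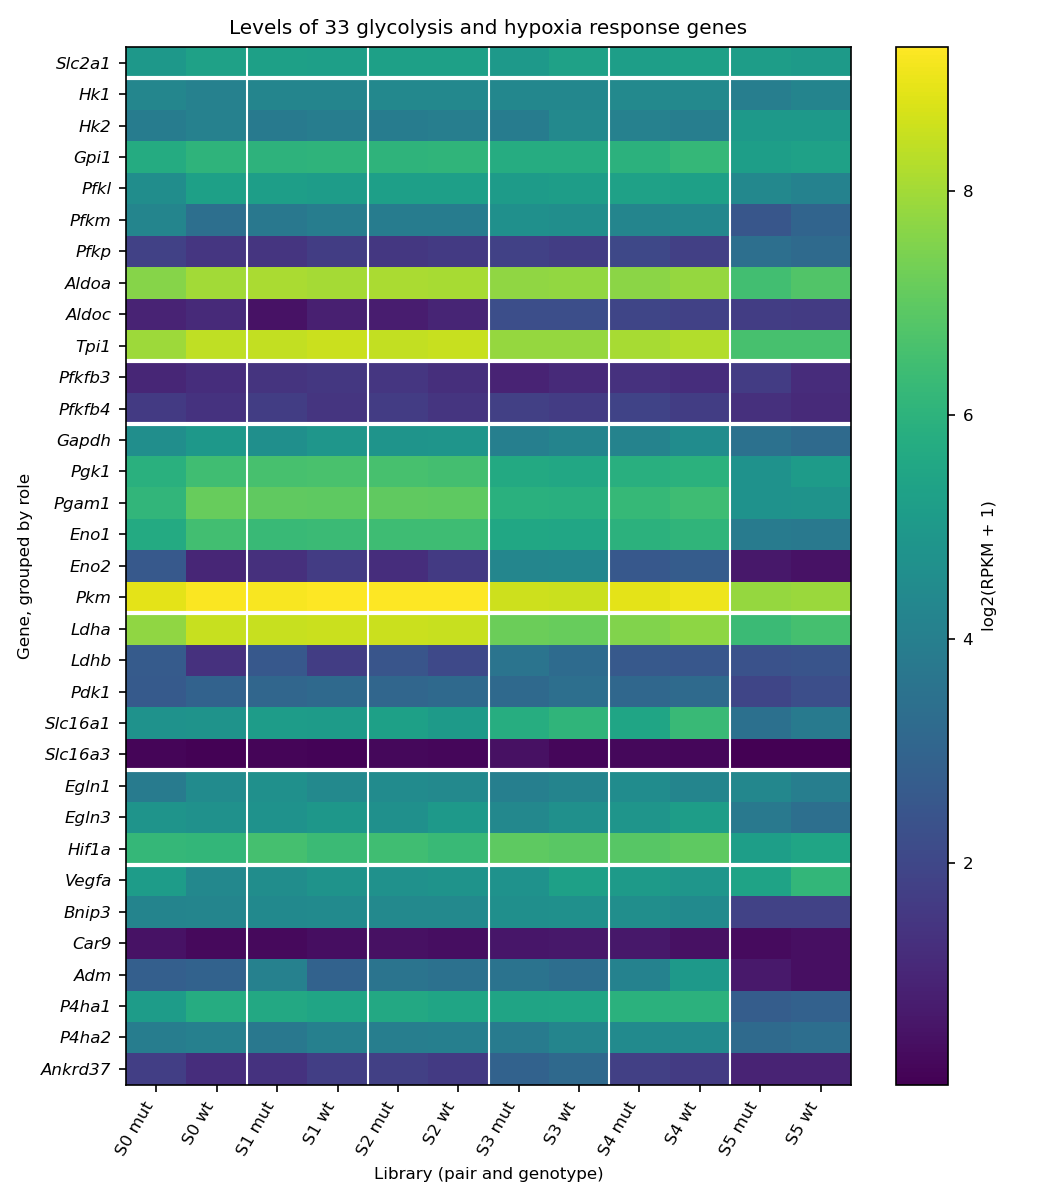
Each cell is the level of a gene, as log2(RPKM + 1), in a library, with genes grouped by role and libraries ordered by pair. Pkm, Ldha, Tpi1 and Aldoa are the brightest rows, most glycolytic rows are dark in both S5 libraries, and the S0 mutant is darker than its control in the rows from Pgk1 to Eno1.

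No member passed the test between genotypes after correction for 13600 genes. At limma's Benjamini-Hochberg adjusted p under 0.05, 0 of 31 members and 0% of all genes were called. At an unadjusted p under 0.05, 2 of 31 members were higher (6.45%, against 3.82% of all genes), namely Pfkfb4 and Ldhb, and 1 was lower (3.23%, against 1.77%), namely Pdk1. The shares over all genes rest on counts of 520 and 241, and leaving out 1 pair moved them to between 333 (without S2) and 647, and between 139 (without S4) and 429 (without S0). Pfkfb4 alone was higher in all 6 pairs, 3.23% of members against 3.62% of all genes. Gpi1 and Pdk1 were lower in all 6, 6.45% against 1.68%. On average over pairs 20 of 31 were lower (64.5%), against 49.8% of all genes. The median member difference was -0.092 on the log2(RPKM + 1) scale, against 0.00055 over all genes, and -0.056 without S0. It was -0.20 in S0, -0.044 in S1, 0.0075 in S2, -0.022 in S3, -0.073 in S4 and -0.015 in S5.

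**Figure D2:**
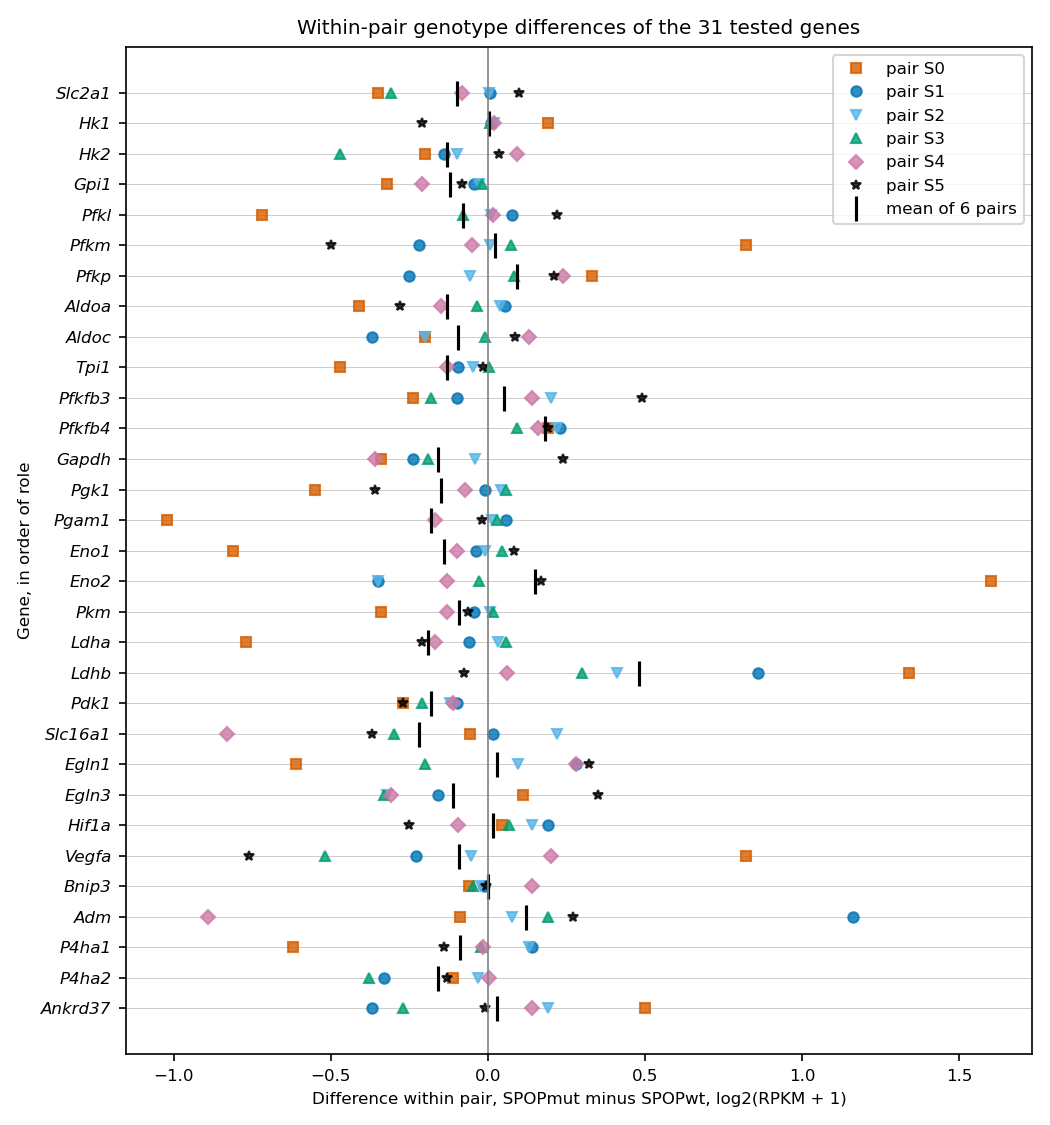
Each point is a pair's SPOPmut minus SPOPwt difference in log2(RPKM + 1), with a row per tested gene and a bar at the mean of the 6 pairs. Most points lie near 0, and the S0 squares reach -1.02 at Pgam1 and 1.60 at Eno2.

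Glucose enters by Slc2a1, the transporter GLUT1, which ranged from 30.4 to 39.1 RPKM over the 12 libraries with a median of 37.5. Its genotype difference was -0.10 (SE 0.0809), or -0.06 without S0, lower in 3 of 6 pairs. Hexokinases then trap the sugar as glucose 6-phosphate. Hk1, the housekeeping form, stood at 18.5 RPKM in the mutant and 16.1 in the control of S0, 17.8 and 17.7 in S1, 19.4 and 19.1 in S2, 18.8 and 18.7 in S3, 20.1 and 19.8 in S4 and 14.8 and 17.4 in S5. It was higher in the mutant in S0 to S4 and lower in S5, with a mean difference of 0.0045 (SE 0.067), or -0.03 without S0. Hk2, the inducible form, was at 13.9 RPKM in the mutant and 16.1 in the control of S0, 13.1 and 14.5 in S1, 13.9 and 15 in S2, 13.9 and 19.6 in S3, 16.1 and 15 in S4 and 31.7 and 30.9 in S5. Both S5 libraries were above all 10 others, while the genotypes overlapped, and the mutant was lower in 4 of 6 pairs.

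Gpi1 converts glucose 6-phosphate to fructose 6-phosphate. It measured 51.6 RPKM in the mutant and 64.7 in the control of S0, 62.8 and 64.8 in S1, 65 and 66.4 in S2, 52.4 and 53.1 in S3, 61.5 and 71.4 in S4 and 36.5 and 38.7 in S5. The mutant was lower in every pair, by 0.019 to 0.32 on the log2 scale, and the groups overlapped. The mean difference was -0.12 (SE 0.0713, adjusted p = 0.887 by limma), and -0.077 without S0. With RPKM rescaled to equal sums it was no longer lower in every pair. Its near-identical copy Gm1840 was not lower in S1 (0.035) or S3 (0.045).

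Phosphofructokinase, the committing step, has 3 genes named for liver, muscle and platelet. Pfkl, the liver form, stood at 22.6 RPKM in the mutant and 37.8 in the control of S0, 36.2 and 34.3 in S1, 37.4 and 37.1 in S2, 33.3 and 35.2 in S3, 38.7 and 38.2 in S4 and 19.5 and 16.6 in S5. The S0 mutant was the lowest outside S5. Pfkm, the muscle form, was at 17.8 RPKM in the mutant and 9.63 in the control of S0, 12.4 and 14.6 in S1, 14.1 and 14.1 in S2, 24.4 and 23.1 in S3, 17.9 and 18.6 in S4 and 4.67 and 6.99 in S5. The S0 mutant was here above its control, and S3 was the highest pair. Pfkp, the platelet form, measured 2.56 RPKM in the mutant and 1.84 in the control of S0, 1.72 and 2.24 in S1, 1.91 and 2.03 in S2, 2.48 and 2.29 in S3, 3.09 and 2.45 in S4 and 9.73 and 8.27 in S5. Both S5 libraries exceeded all others by a wide margin. The limma differences were -0.079 (SE 0.119) for Pfkl, 0.021 (SE 0.15) for Pfkm and 0.092 (SE 0.0887) for Pfkp. Without S0 they were 0.05, -0.14 and 0.05, so that the signs of Pfkl and Pfkm turned.

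The PFKFB enzymes set the level of fructose 2,6-bisphosphate, the activator of phosphofructokinase. Pfkfb4 stood at 1.99 RPKM in the mutant and 1.63 in the control of S0, 2.25 and 1.76 in S1, 2.22 and 1.76 in S2, 2.4 and 2.19 in S3, 2.68 and 2.28 in S4 and 1.49 and 1.18 in S5. The mutant was higher in 6 of 6 pairs, by 0.093 to 0.23 on the log2 scale, although the groups as a whole overlapped. The mean difference was 0.18 (SE 0.0587), with an unadjusted p of 0.0142 and an adjusted p of 0.881 by limma. It was 0.18 also without S0. Without S2 the unadjusted p was 0.0511. Pfkfb3, a HIF target whose enzyme mostly makes the activator, ranged from 0.95 to 2.21 RPKM and was higher in 3 pairs and lower in 3.

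Aldolase and triosephosphate isomerase split the sugar into interchangeable smaller parts. Aldoa, the main aldolase, was at 194 RPKM in the mutant and 258 in the control of S0, 274 and 264 in S1, 275 and 268 in S2, 215 and 220 in S3, 202 and 225 in S4 and 89.1 and 108 in S5. Tpi1 measured 241 RPKM in the mutant and 334 in the control of S0, 348 and 371 in S1, 348 and 360 in S2, 227 and 227 in S3, 268 and 294 in S4 and 94.3 and 95.3 in S5. Both were lowest in S5, and in S0 both were lower in the mutant. Differences were -0.13 for each (SE 0.0884 for Aldoa and 0.0871 for Tpi1), and -0.08 and -0.06 without S0. Aldoc, the brain aldolase, ranged from 0.392 RPKM in the S1 mutant to 3.80 in the S3 control, with S3 the highest pair.

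In the lower steps, Gapdh and Pgk1 form the next intermediates and the first ATP. Gapdh stood at 23.4 RPKM in the mutant and 29.8 in the control of S0, 24 and 28.6 in S1, 27.3 and 28.2 in S2, 15.4 and 17.6 in S3, 16.9 and 22.1 in S4 and 10.1 and 8.4 in S5. It was lower in the mutant in 5 of 6 pairs and higher in S5, by -0.16 on average (SE 0.0894). Pgk1 was at 58.7 RPKM in the mutant and 86.4 in the control of S0, 95.9 and 96.6 in S1, 94.2 and 91.5 in S2, 48.6 and 46.7 in S3, 57.1 and 60.2 in S4 and 25.6 and 33.1 in S5. The S0 mutant was below its control, and its mean difference of -0.15 (SE 0.0994) became -0.07 without S0. Pgam1 measured 68.1 RPKM in the mutant and 139 in the control of S0, 130 and 125 in S1, 128 and 126 in S2, 59 and 57.7 in S3, 74.4 and 83.6 in S4 and 25.9 and 26.2 in S5. The S0 mutant held less than its control by 1.02 on the log2 scale, while the other 5 pairs differed by -0.17 to 0.057. The mean was -0.18 (SE 0.146) with S0 and -0.02 without it.

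Enolase makes phosphoenolpyruvate, and pyruvate kinase then releases the last ATP. Eno1, the widespread enolase, stood at 50.3 RPKM in the mutant and 88.7 in the control of S0, 78.6 and 80.6 in S1, 83.7 and 84.3 in S2, 45.9 and 44.5 in S3, 62.2 and 66.8 in S4 and 13.5 and 12.7 in S5. Its difference of -0.14 (SE 0.122) was carried by S0, where it was -0.81, and spanned -0.10 to 0.084 in the other pairs. Eno2, the neuronal enolase, was at 5.12 RPKM in the mutant and 1.02 in the control of S0, 1.5 and 2.19 in S1, 1.37 and 2.03 in S2, 18.4 and 18.8 in S3, 4.99 and 5.56 in S4 and 0.548 and 0.376 in S5. Both S3 libraries stood far above the rest, and the S0 mutant was above its control by 1.60, whereas the mutant was lower in S1 to S4. Its mean difference was 0.15 (SE 0.242) with S0 and -0.14 without. Pkm, pyruvate kinase of most tissues and the most abundant member, measured 474 RPKM in the mutant and 599 in the control of S0, 589 and 607 in S1, 622 and 619 in S2, 380 and 376 in S3, 477 and 523 in S4 and 224 and 234 in S5. The mean difference was -0.092 (SE 0.0807), or -0.04 without S0, where the mutant was again below its control.

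Lactate dehydrogenase is a tetramer of A and B subunits, and the B form is the typical one of oxidative tissue such as heart. Ldha, the main subunit, stood at 213 RPKM in the mutant and 365 in the control of S0, 358 and 374 in S1, 369 and 361 in S2, 146 and 140 in S3, 185 and 208 in S4 and 79.8 and 92.2 in S5. The S0 mutant was lower by 0.77 on the log2 scale, and the other pairs differed by -0.21 to 0.058. The mean was -0.19 (SE 0.117), or -0.07 without S0. Ldhb was at 5.42 RPKM in the mutant and 1.54 in the control of S0, 4.96 and 2.27 in S1, 4.53 and 3.17 in S2, 10.9 and 8.68 in S3, 5.05 and 4.8 in S4 and 4.11 and 4.38 in S5. The mutant was higher in S0 to S4 and lower in S5 (higher there too with RPKM rescaled to equal sums), and the groups overlapped. Its mean difference of 0.48 (SE 0.178) had an unadjusted p of 0.026 and an adjusted p of 0.881 by limma, with 5 of 6 pairs higher. It was 0.31 without S0, and without S1 the unadjusted p was 0.0757. As a share of the summed RPKM of Ldha, Ldhb and Ldhc, which sets genes on a per-length scale, Ldhb took more in the mutant than in the control of all 6 pairs. The shares were 2.48% and 0.42% in S0 (mutant, then control), 1.36% and 0.604% in S1, 1.21% and 0.869% in S2, 6.94% and 5.82% in S3, 2.65% and 2.25% in S4, and 4.89% and 4.54% in S5. This direction was noticed after the values were seen, was not tested, and was also 6 of 6 with the near-identical copies added.

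Pdk1 limits the use of pyruvate in mitochondria by phosphorylating pyruvate dehydrogenase. It measured 5.26 RPKM in the mutant and 6.57 in the control of S0, 7.51 and 8.13 in S1, 7.36 and 8.1 in S2, 8.06 and 9.5 in S3, 7.78 and 8.46 in S4 and 2.89 and 3.7 in S5. The mutant was lower in every pair, by 0.10 to 0.27 on the log2 scale, with overlapping groups. The mean difference was -0.18 (SE 0.0589), with an unadjusted p of 0.0142 and an adjusted p of 0.881 by limma, and -0.16 without S0. Slc16a1, the lactate transporter MCT1, stood at 25.6 RPKM in the mutant and 26.7 in the control of S0, 34.1 and 33.7 in S1, 38.4 and 32.7 in S2, 54.1 and 66.8 in S3, 43.2 and 77.4 in S4 and 10 and 13.3 in S5. The S4 control was the highest library, 0.83 above its mutant on the log2 scale, and the mean difference was -0.22 (SE 0.13). Slc16a3, the exporter MCT4, stayed at 0.0167 to 0.356 RPKM.

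Of the HIF genes, Hif1a encodes the alpha subunit, controlled mainly as protein. It was at 72.6 RPKM in the mutant and 70.3 in the control of S0, 91.7 and 80.4 in S1, 85.8 and 78 in S2, 125 and 119 in S3, 117 and 125 in S4 and 36.1 and 43.1 in S5. S3 and S4 were the highest pairs and S5 the lowest, and the genotype difference was 0.015 (SE 0.0803). Egln3, an oxygen sensor that HIF itself raises, measured 27.1 RPKM in the mutant and 25.1 in the control of S0, 25.8 and 29 in S1, 24.5 and 30.9 in S2, 19.4 and 24.7 in S3, 28.1 and 35.2 in S4 and 12.5 and 9.61 in S5. The mutant was lower in S1 to S4 and higher in S0 and S5, by -0.11 on average (SE 0.105), or -0.16 without S0. Egln1, the main oxygen sensor, ranged from 13.7 to 24.4 RPKM with a difference of 0.028 (SE 0.128), or 0.16 without S0, where it was -0.61.

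Among other hypoxia targets, Bnip3, a mitophagy receptor, stood at 17.2 RPKM in the mutant and 17.9 in the control of S0, 20.6 and 20.7 in S1, 19.6 and 19.9 in S2, 23.6 and 24.4 in S3, 23 and 20.8 in S4 and 2.63 and 2.65 in S5. The genotypes lay close, with a difference of -0.0004 (SE 0.0577), and both S5 libraries were far below the rest. Adm, the vasodilator peptide adrenomedullin, was at 6.15 RPKM in the mutant and 6.6 in the control of S0, 16 and 6.6 in S1, 10.9 and 10.2 in S2, 10.8 and 9.34 in S3, 16.4 and 31.3 in S4 and 0.574 and 0.309 in S5. The pairs disagreed widely, from 1.16 in S1 to -0.89 in S4. P4ha1, which hydroxylates collagen prolines, measured 34 RPKM in the mutant and 52.9 in the control of S0, 48.1 and 43.5 in S1, 47.4 and 43.3 in S2, 42.1 and 42.8 in S3, 60.5 and 61.2 in S4 and 5.83 and 6.51 in S5. Its mean difference of -0.088 (SE 0.106) was 0.02 without S0. The sister gene P4ha2 ranged from 8.42 to 21.2 RPKM and was lower in 5 of 6 pairs (-0.16, SE 0.0725, unadjusted p = 0.0537 by limma). Vegfa, the vessel growth factor, ranged from 19.2 to 70.4 RPKM and its genotype difference ran from 0.82 in S0 to -0.76 in S5, with a mean of -0.091 (SE 0.187), or -0.27 without S0. Ankrd37 ranged from 0.937 to 8.18, highest in S3, and 26.4% of its exon length overlaps other genes. This overlap was 22.3% for Bnip3, 15.3% for Pkm, 11.5% for Gpi1 and 10.7% for Pfkm, and less for the other members. Car9, the tumour carbonic anhydrase, was at 0.206 to 0.556 RPKM.

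Lower in the mutant were 21 of 31 members in S0 (50.8% of all genes), 19 in S1 (41.1%), 13 in S2 (34.3%), and 18 in each of S3 (48.7%), S4 (58%) and S5 (50.1%). The mean log2 difference of 10 proliferation genes was -0.81 in S0, 0.05 in S1, 0.12 in S2, 0.47 in S3, -0.29 in S4 and -0.62 in S5. The members' medians in the same order of pairs were -0.20, -0.044, 0.0075, -0.022, -0.073 and -0.015. What proliferation contributes to the differences of the members was not tested. In such bulk samples fewer cells of a type and less RNA per cell cannot be told apart.

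Levels lay further apart between S5 and S0 to S4 than between genotypes. This is a description with no test, since S5 is 1 pair. Of 31 members at an RPKM of 1 in at least 2 libraries, 17 were at least 2-fold lower in S5 without overlap (54.8%, against 12.4% of 15508 genes), and 2 were at least 2-fold higher (6.45%, against 10.8%). The median difference was -1.18 on the log2(RPKM + 1) scale for members, with 26 of 31 lower, and -0.039 for all genes. Folds on this scale understate those of genes of low level.

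No gene of glucose uptake or hexokinase was at least 2-fold lower in S5, and Gpi1 was lower by less, 1.61-fold. Both S5 libraries were still below all others for Gpi1, at 36.5 to 38.7 RPKM against 51.6 to 71.4. Among the phosphofructokinase genes only Pfkm passed, while Pfkl was lower 1.88-fold without overlap and Pfkp was higher. The glycolytic genes at least 2-fold lower were Pfkm (2.54-fold), Aldoa (2.4-fold), Tpi1 (3.11-fold), Gapdh (2.33-fold), Pgk1 (2.39-fold), Pgam1 (3.5-fold), Eno1 (4.8-fold), Eno2 (3.46-fold) and Pkm (2.26-fold). In the lactate and pyruvate branch they were Ldha (2.93-fold), Pdk1 (2.01-fold) and Slc16a1 (3.32-fold). Of the hypoxia genes, Adm was lower 8.39-fold, P4ha1 6.69-fold, Bnip3 5.95-fold, Hif1a 2.35-fold and Egln3 2.31-fold. Higher were Hk2 (2.01-fold) and Pfkp (3.08-fold). Just inside the 2-fold limit, a difference of 1, lay Hk2 at 1.01 and Pdk1 at -1.01, and just outside lay Vegfa at 0.95, Ankrd37 at -0.95 and Pfkl at -0.91. Hk2 was at 0.98 when S1 was left out and just under the limit without S2, and Pdk1 was at -0.96 without S3 and -0.99 without S4. Vegfa, at 41.1 and 70.4 RPKM in S5, was above the 19.2 to 37.7 of the other pairs. Slc2a1, Hk1, Aldoc, Ldhb, Pfkfb3, Egln1 and Car9 overlapped between S5 and the others. In S5 the 10 epithelial markers summed to 3646 to 4846 RPKM, against 9.96 to 113 in S0 to S4, the 12 mesenchymal markers to 15.1 to 16.1 against 1526 to 2916, and the 10 proliferation genes to 31.2 to 51.2 against 50 to 466. Cell type, proliferation and pair cannot be told apart.

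**Figure D3:**
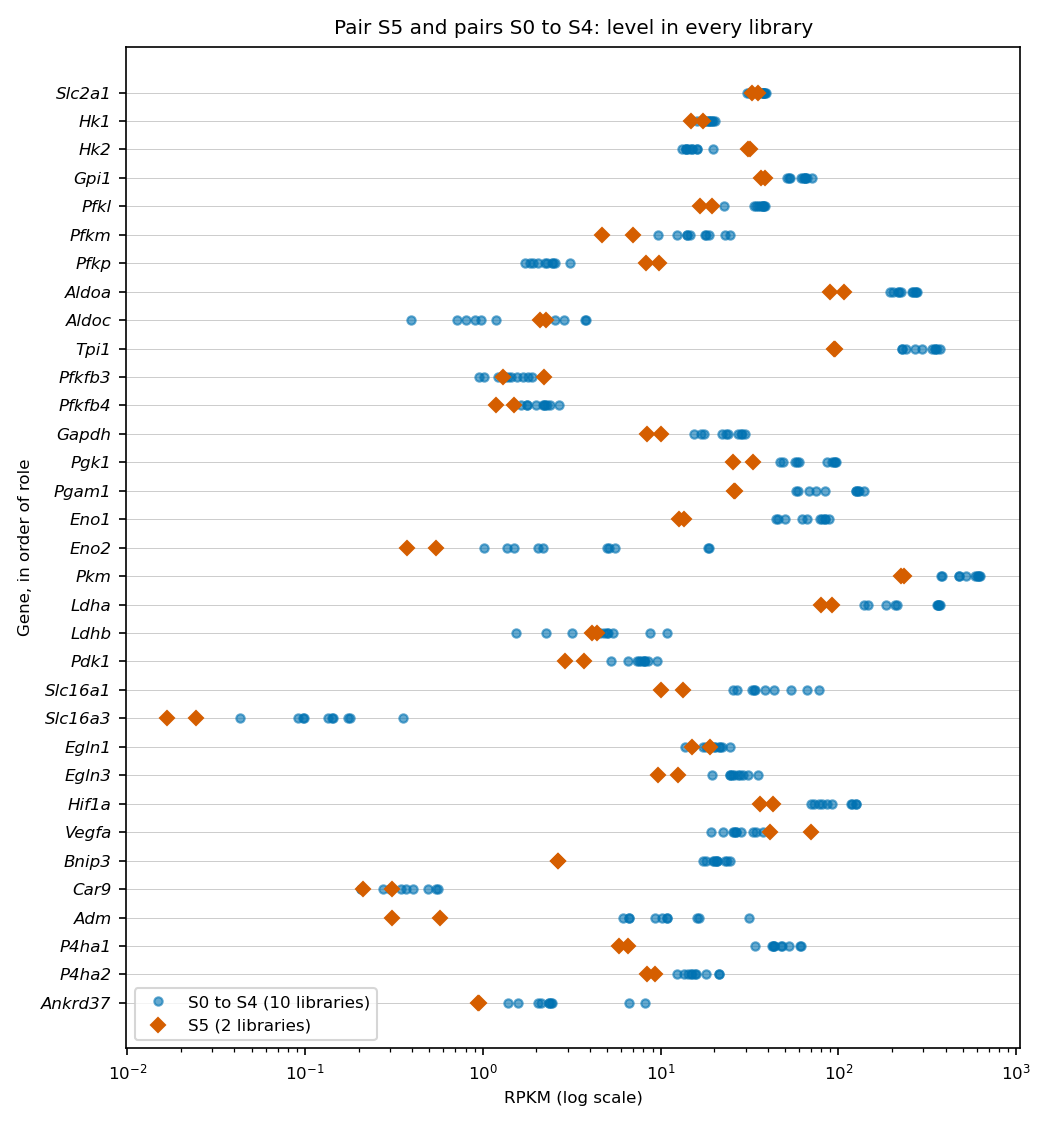
Each point is the RPKM of a gene in a library on a log scale, with diamonds for the 2 S5 libraries and circles for the 10 libraries of S0 to S4. The diamonds lie left of all circles for genes such as Bnip3, Adm and P4ha1, right of them for Hk2, Pfkp and Vegfa, and among them for Slc2a1.

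Isoform use, as shares of the family's summed RPKM, was apart in S5 without overlap for the leading hexokinase genes and for Pfkp, and not for lactate dehydrogenase or for Eno1 and Eno2. Hk2 made up 66% of hexokinase in S5 on average (68% and 64%), against 44.7% in S0 to S4 (41.8 to 51.1%), and Hk1 the rest but for under 1%. Pfkp took 27.3% of phosphofructokinase, against 4.21% (3.41 to 5.98%), while Pfkm took 17.8% against 30.7% and Pfkl 54.8% against 65.1%. The Pfkm share of S5 overlapped that of S0 to S4, since the S5 control at 21.9% was above the S0 control at 19.5%. In lactate dehydrogenase the Ldhb share of S5, 4.71%, lay inside the range of S0 to S4, 0.42 to 6.94%, within their spread. In enolase the S5 shares of Eno1 (73.5%, against 54 to 81.1%) and Eno2 (2.6%, against 0.681 to 26.3%) also lay inside. Eno4, a minor enolase, took 1.61% in S5 and 0.09% in S0 to S4 on average. In the S0 mutant Pfkm was 41.4% of phosphofructokinase, against 19.5% in its control, and Eno2 5.5% of enolase against 0.681%. With the near-identical copies of Eno1 added, those Eno2 shares were 2.14% and 0.246%. Between P4ha1 and P4ha2, the latter was 58.2% of the collagen prolyl hydroxylase alpha genes in S5 and 23.7% in S0 to S4.

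**Figure D4:**
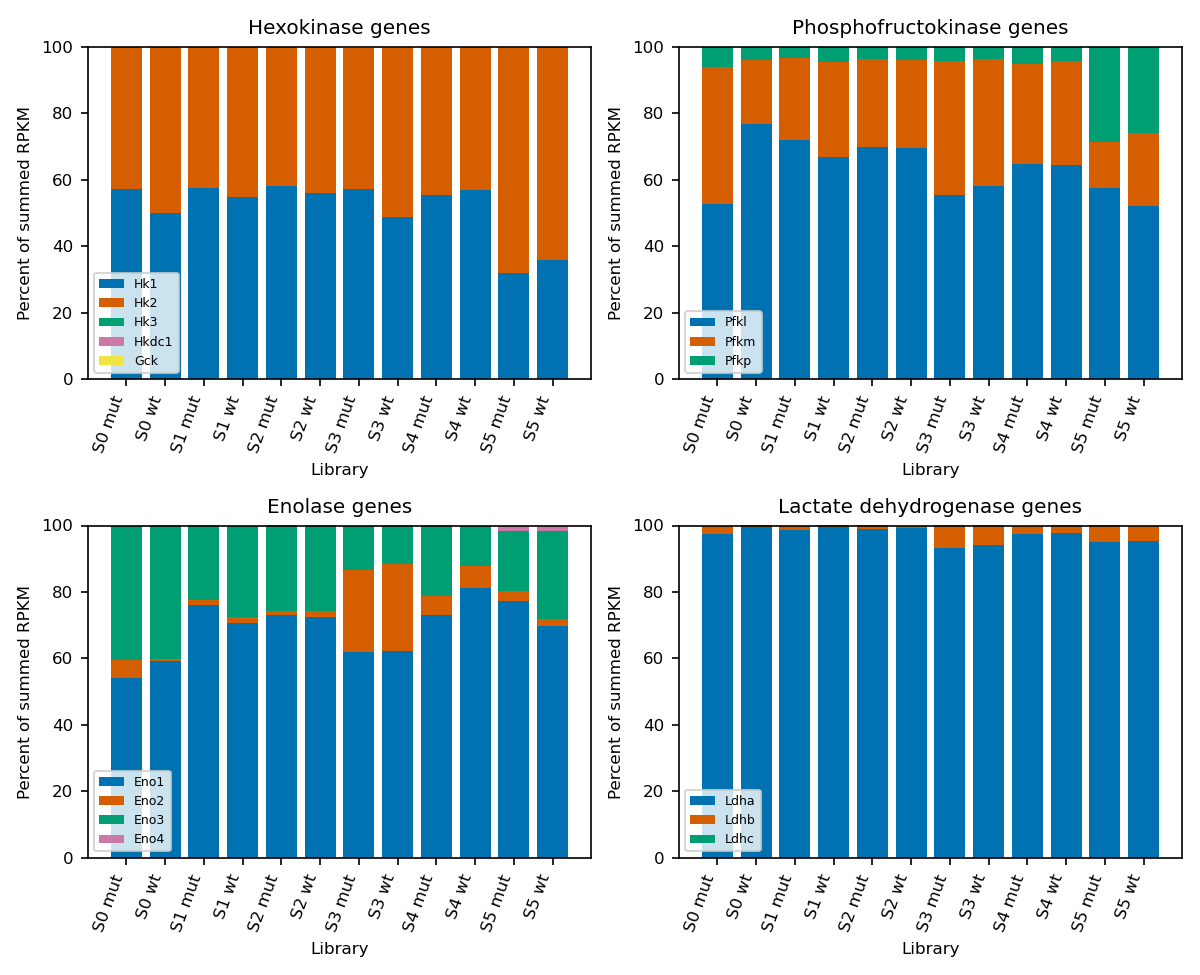
Stacked bars give each gene's percent of the summed RPKM of its family in each library, from 0 to 100. Hk2 and Pfkp take larger shares in both S5 libraries, Eno2 in both S3 libraries, and Eno3, the muscle enolase, in both S0 libraries.

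Several levels are uncertain because of near-identical genes, found by matching transcripts at 95% identity or more. Eno1 at 12.7 to 88.7 RPKM was below its copy Gm4735, listed at 117 to 944, and kept 25.1 to 28.7% of the approximate reads of the set. Pgk1 kept 18.1 to 19.9% beside Pgk1-rs7 (193 to 729 RPKM), Pgam1 42.6 to 46.6% beside Pgam1-ps2 (80.1 to 484 RPKM), and Gapdh 20.1 to 24.9% beside 71 copies in the files. Gpi1 kept 74.4 to 77% beside Gm1840 (49.1 to 102 RPKM), and Bnip3 72.1 to 75% beside Gm16439 (3.56 to 33.6 RPKM). Ldha kept 97.6 to 98.2% and Ldhb 68.5 to 79.7%. How reads that map to several genes were counted is not given in the sources used here, so the deposited RPKM of Gapdh, 8.4 to 29.8, cannot be read as its full level. With copies added, Gapdh was lower in the mutant in all 6 pairs, where alone it was lower in 5, and the genes higher (Pfkfb4) and lower (Gpi1, Pdk1) in every pair were otherwise unchanged.

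**Figure D5:**
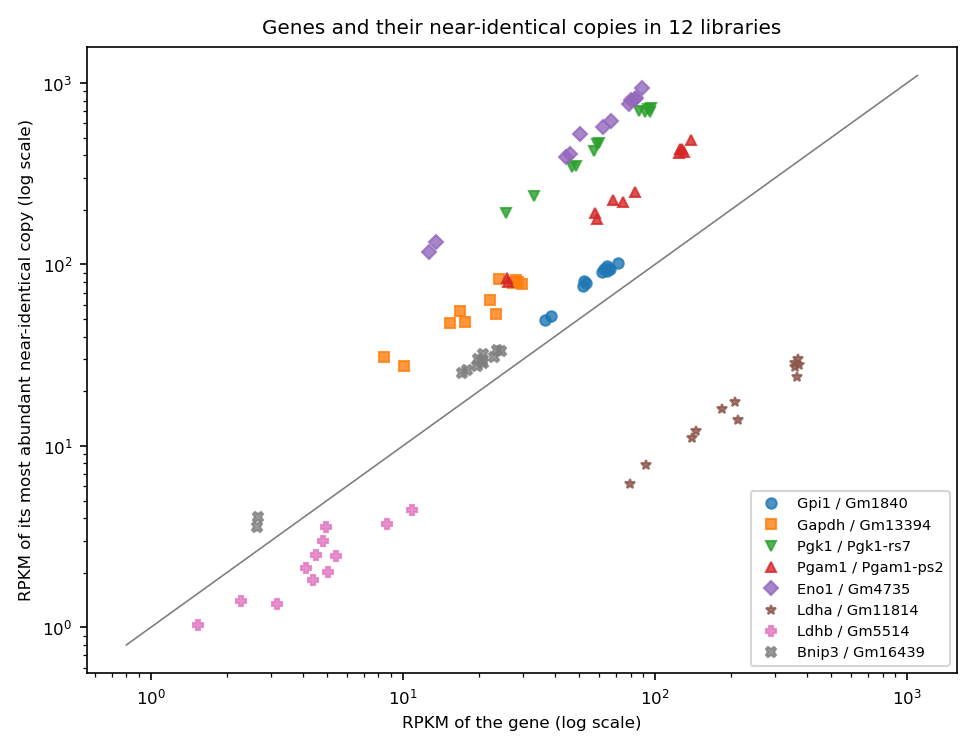
Each point is a library, with the RPKM of a gene on the x axis and that of its most abundant near-identical copy on the y axis, both on log scales, and a line of equality. Eno1, Pgk1, Pgam1, Gapdh, Gpi1 and Bnip3 lie above the line in all 12 libraries, and Ldha and Ldhb below it.

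Other genes of these pathways, in 5 lists, gave no call either, with limma at an adjusted p under 0.05. Over all genes tested, 3.82% were higher and 1.77% lower at an unadjusted p under 0.05. In all 6 pairs 3.62% were higher and 1.68% lower. Genes named below were picked by smallest p in their list, so 1 direction in all 6 pairs adds no support. Of 22 paralogues of the glycolytic genes in the files 7 were tested, and 0 had an unadjusted p under 0.05. Closest were Pdk2 (0.20, SE 0.0872, higher in 6 of 6 pairs) and Bpgm (0.22, SE 0.144, higher in 4). Of 14 genes of pyruvate entry and lactate handling 13 were tested, 1 with an unadjusted p under 0.05: Mpc1, a subunit of the mitochondrial pyruvate carrier, higher by 0.17 (SE 0.0585, unadjusted p = 0.0211, adjusted p = 0.881 by limma). Mpc1 was above its control in each of the 6 pairs. Slc16a4, of the lactate transporter family, was next, at 0.22 (SE 0.12), higher in 6 of 6. Of 19 genes of the pentose phosphate and glycogen branches in the files 15 were tested, and 0 reached an unadjusted p under 0.05. Pgm2 was at -0.13 (SE 0.0814) and G6pdx, the entry to the pentose phosphate route, at -0.11 (SE 0.074), each lower in 5 pairs. Of 12 HIF subunit and oxygen sensing genes 10 were tested, 0 with an unadjusted p under 0.05, with Arnt, HIF's stable partner, at 0.12 (SE 0.0759) and Cited2, a HIF antagonist, at 0.13 (SE 0.0966).

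Among 37 other hypoxia response genes 32 were tested, 3 of them higher and 1 lower at an unadjusted p under 0.05. Over all genes tested, 3.82% were higher and 1.77% lower at that p. The 2 of smallest p are given here, so 1 direction in all their pairs adds no support. Ero1l, an oxidase of protein folding, stood at 24.3 RPKM in the mutant and 27.7 in the control of S0, 20.8 and 26.7 in S1, 21.3 and 25.6 in S2, 13.7 and 19.2 in S3, 24 and 25.8 in S4 and 26.3 and 42.4 in S5. The mutant was the lower in each of the 6 pairs. limma gave a difference of -0.34 (SE 0.0852) with an unadjusted p of 0.00414 and an adjusted p of 0.769. Ndrg1, a stress-induced gene, was at 37.1 RPKM in the mutant and 22.5 in the control of S0, 28.9 and 22.7 in S1, 26.7 and 23.1 in S2, 29.1 and 27.9 in S3, 26 and 20.7 in S4 and 27.3 and 18.1 in S5. The mutant was the higher in each of the 6 pairs. limma gave a difference of 0.37 (SE 0.093) with an unadjusted p of 0.00419 and an adjusted p of 0.769, opposite in direction to Ero1l. In the S5 contrast 10 of 34 genes of this list were at least 2-fold lower without overlap and 7 at least 2-fold higher, where all genes gave 12.4% and 10.8%. The other lists gave 3 lower and 1 higher of 10 paralogues, 1 and 0 of 14 genes of pyruvate entry and lactate handling, 1 and 2 of 15 genes of the pentose phosphate and glycogen branches, and 0 and 1 of 11 HIF subunit and oxygen sensing genes.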

How the data were processed

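The authors deposited a table of RPKM by gene name for each library, the unit being given in the file names. Per the submitters' processing notes, reads were aligned with STAR 2.4.0j to mm10 (GRCm38). Per the labels' protocols, libraries were TruSeq version 2, without strand marks, and paired reads of 51 bases. The counting tool, the annotation and the handling of multiply mapped reads were not given in the sources used here.

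RPKM was transformed to log2(RPKM + 1), which understates changes of low genes. With limma 3.58.1 in R 4.3.3, pair and genotype were fitted over the 13600 genes at an RPKM of 1 or more in 6 or more libraries (trended, robust prior; two-sided; Benjamini-Hochberg; threshold 0.05). The script was tested on simulated data. Pairing came from the labels, which speak of pairs and number both groups S0 to S5; the deviations of paired samples correlated by 0.0602 in S0 and 0.753 to 0.954 in the others. Depth was inferred from the steps between low RPKM values and GENCODE M21 exon lengths (91.2% of names matched), and a step may be a read or a read pair, so no counting interval is given. Near-identical genes were matched with blastn 2.17.0 (95% identity over 300 bases). Shares are of the summed RPKM of a family. Named genes were all members, with each library's values for those of the 4 isoform families, with 1 direction in all pairs, with an unadjusted p under 0.05, or 2-fold apart in S5, and the 2 of smallest p per pathway list. Members and lists were chosen with earlier results of these data known. Other computing used Python 3.11.15, pandas 2.3.3 and numpy 2.4.6.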

Additional observations from a re-analysis of the deposited data

Results flagged for a closer look

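Groups of 6 values, 3 for each tested gene, were searched for a value far from the other 5 by Dixon's ratio of gap to range at the 95% level. Of 93 groups 28 held such a value. No share over all genes is given for this search, and the groups share libraries and so are not independent. The count therefore says nothing particular to the members.

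In 8 cases the value was a within-pair difference on the log2 scale, and 7 of these were in S0. Lower in the S0 mutant were Pgam1 (-1.02), Eno1 (-0.81), Ldha (-0.77), Pfkl (-0.72), P4ha1 (-0.62) and Tpi1 (-0.47), and higher was Eno2 (1.60). The remaining case was Bnip3 in S4, at 0.14, where the other pairs lay from -0.059 to -0.006.

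S5 gave 9 of the 11 far levels in SPOPwt and 8 of the 9 in SPOPmut. Low in both S5 libraries (mutant, then control) were Aldoa at 89.1 and 108 RPKM, Tpi1 at 94.3 and 95.3, Eno1 at 13.5 and 12.7, Bnip3 at 2.63 and 2.65 and P4ha1 at 5.83 and 6.51. Pfkp was high in both, at 9.73 and 8.27 RPKM. The ratio was passed in 1 of the genotypes by Hk2 (high, 31.7 RPKM) and Adm (low, 0.574) in the S5 mutant, and by Slc2a1 (32.7), Pfkl (16.6) and Egln3 (9.61), all low, in the S5 control. The S5 library of the other genotype was also beyond the rest of its group for Hk2 (30.9), Adm (0.309), Pfkl (19.5) and Egln3 (12.5), but not for Slc2a1 (35.1).

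Outside S5, Ldhb stood at 10.9 RPKM in the S3 mutant, Ankrd37 at 8.18 in the S3 control and Pfkfb3 at 1.88 in the S1 control.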

How the results depend on the processing

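The differences of Gpi1, Pfkfb4, Ldhb and Pdk1 kept their direction in each of 16 alternatives (adjusted p from limma 0.11 to 1.0 over the 4 genes), and 0 members passed an adjusted p under 0.05 in any of them. With no replicate block, 0 members were higher and 0 lower at an unadjusted p under 0.05. Leaving out 1 pair at a time gave 1 to 2 higher and 1 to 2 lower, 1 to 3 higher and 2 to 4 lower in every remaining pair, a median member difference of -0.10 to -0.056 (-0.092 with all pairs), and 1 to 2 members 2-fold higher in S5. Over all genes the counts at that p, 520 higher and 241 lower, were 333 higher without S2, and 429 lower without S0 and 139 without S4. For the counts in every remaining pair and in S5, shares over all genes are not given with a pair left out. With S1 to S4 only, 2 members were higher at that p (5.45% of all genes) and 4 lower (3.78%). In every pair of S1 to S4, 3 (Hk1, Pfkfb4, Ldhb) were higher (11.2% of all genes) and 5 (Gpi1, Gapdh, Eno2, Pdk1, Egln3) lower (7.2%). The median member difference was -0.036 there and -0.023 with weights per pair. Weights per pair called 7 genes higher and 2 lower of all genes, none a member. At an unadjusted p under 0.05 by limma, 2 of 31 members were higher and 2 lower there, beside 1361 and 728 of 13600 genes. With RPKM rescaled to equal sums, 2 members were higher in every pair, Ldhb being added. On the lower side Gpi1 was lost and Aldoa gained, beside Pdk1. Eno1's share of enolase was 96.6% in S5 and 90.8% in S0 to S4 among members only, and 90.9% and 88.6% with near-identical copies added, an alternative chosen after seeing the data. With copies added Eno2's share was 0.874% in S5 and 2.88% in S0 to S4, against 2.6% and 7.61%. The cause of these shifts was not tested. Without S2 Pfkfb4, and without S1 Ldhb, had an unadjusted p over 0.05. Depth limits the precision of genes near an RPKM of 1, such as Pfkfb3, Pfkfb4 and Eno2.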

Other observations

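The near-identical copies repeated the S0 difference of the genes they resemble. In S0 the mutant minus control difference on the log2(RPKM + 1) scale was -1.10 for Pgam1-ps2, -0.85 for Gm4735 (Eno1), -0.75 for Gm11814 (Ldha), -0.60 for Pgk1-rs7 and -0.53 for Gm13394 (Gapdh). For Gm5514, the copy of Ldhb, it was 0.77 in S0, 0.93 in S1, 0.58 in S2, 0.21 in S3, -0.41 in S4 and 0.13 in S5, so in S4 and S5 its sign was opposite to that of Ldhb. Whether reads were shared between a gene and its copy was not tested.

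Eno3, the muscle enolase, was at 37.7 and 60 RPKM in the S0 mutant and control and at 3.13 and 4.85 in S5. The skeletal muscle markers Ckm, Myh1 and Myh4 were at or near 0 in all 12 libraries.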
